A study of Rattus norvegicus with 47 samples.

Results

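The messenger RNAs of the cytosolic ribosomal proteins were examined in rat kidney. The members were the genes whose symbols begin with Rpl, Rps or Rplp followed by a digit, leaving out the Rps6k kinases, with a mean normalized count of at least 5 over the 16 kidneys. There were 78 members among 13673 kidney genes that reached this mean, and 14747 genes in all. A total of 80 genes had such a symbol. Rpl3l (mean 1.48) and Rpl39l (mean 4.22) lay under the limit, and Rpl10l (mean 13.7) was the member closest above it. The kidney tissue came from 8 rats of the high-fat diet group (HFD) and 8 rats of the standard diet group (SD). All were male rats of the outbred Wistar Han stock, aged 7 weeks at the start and fed their diet for 10 weeks. Each kidney was divided, and the RNA came from what remained after pieces had been taken for histology and for freezing. Total RNA was sequenced with a directional kit, and each rat gave 1 library, so that the rat is the replicate. The sample labels give the diet of each rat but not its glomerular lesions, so the members are described by diet and by rat, and a comparison by lesion was not analysed here.

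The ribosome reads mRNA and joins amino acids into protein. Its small subunit decodes the mRNA, its large subunit forms the peptide bond, and the stalk of the large subunit, built from the P0, P1 and P2 proteins, calls in the elongation factors. The ribosomal proteins are made in matched amounts, and unassembled copies are degraded. In mammals their mRNAs usually start with a short stretch of C and T bases, the terminal oligopyrimidine tract, which lets the mTOR kinase and the RNA-binding protein Larp1 control how fast these mRNAs are translated. That control acts on translation, so an mRNA level does not give the rate at which the proteins are made.

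By class, 37 members belong to the large subunit, 26 to the small subunit and 3 to the stalk (Rplp0, Rplp1, Rplp2). A further 8 are paralogs (Rpl7l1, Rpl10l, Rpl22l1, Rpl31l4, Rpl36al, Rps4y2, Rps10l1, Rps27l), and 3 carry the symbol of a pseudogene (Rpl6-ps1, Rpl37a-ps1, Rps27a-ps1). The last, Rps19bp1, codes for a protein that binds Rps19 and is not part of the ribosome. By gene identifier 76 of the 78 were found in RefSeq, where 3 members (Rps10l1, Rpl6-ps1, Rps27a-ps1) are pseudogenes, the member listed as Rpl37 is named Rpl37l1, and the member listed as Rpl37a-ps1 is the coding gene Rpl37a. The rat genome holds many processed copies of these genes: 1165 RefSeq genes have a matching symbol, of which 844 are pseudogenes. Reads from near-identical copies can be split between them in the counting, so the values of single members, above all of the paralogs and pseudogene symbols, are uncertain to that extent. None of the 80 matching symbols was Rps6, Rps27a, Rpl8, Rpl36a or Rpl38, so these genes were not analysed here. Rpl7a, Rpl13, Rps20 and Rps26 were likewise not among them, and the members are thus not the whole family. The counts are not scaled for transcript length, so levels are compared between rats and not between genes.

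Start site windows from RefSeq (build GRCr8) were matched by identifier to 59 of the 78 members. The stretches printed here hold 30 bases before the annotated start and the first 25 bases from it, 5′ to 3′ on the coding strand. Capitals mark the run of 7 or more C or T bases closest to the start. The members shown first varied widely between kidneys (the stalk genes, Rps15, Rps19, Rpl36 and Rpl9). Those shown after them varied least or are core genes of their subunit (Rpl3, Rpl10, Rpl4, Rps23, Rps3). Other members with a window, among them Rps4y2, Rpl10l, Rpl29 and Rpl18, varied more than Rplp0 and are not shown. Rps15 and Rps23 were chosen after their values were seen.
Rplp0, chr12:46718366-46718420, minus strand: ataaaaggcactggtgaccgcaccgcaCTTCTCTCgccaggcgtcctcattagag
Rplp1, chr8:71290848-71290902, minus strand: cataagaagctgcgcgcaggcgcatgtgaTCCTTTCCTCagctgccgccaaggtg
Rplp2, chr1:205975891-205975945, plus strand: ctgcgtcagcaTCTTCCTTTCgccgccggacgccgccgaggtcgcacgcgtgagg
Rps15, chr7:10068091-10068145, minus strand: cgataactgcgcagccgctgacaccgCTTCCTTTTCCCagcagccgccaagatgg
Rps19, chr1:89608658-89608712, plus strand: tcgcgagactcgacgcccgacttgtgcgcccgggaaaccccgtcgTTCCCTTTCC
Rpl36, chr9:1533750-1533804, plus strand: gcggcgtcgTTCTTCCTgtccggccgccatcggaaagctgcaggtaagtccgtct
Rpl9, chr14:43247560-43247614, plus strand: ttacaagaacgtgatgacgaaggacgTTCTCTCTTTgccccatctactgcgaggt
Rpl3, chr7:113507966-113508020, minus strand: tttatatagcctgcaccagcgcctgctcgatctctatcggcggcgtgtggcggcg
Rpl10, chrX:157205820-157205874, plus strand: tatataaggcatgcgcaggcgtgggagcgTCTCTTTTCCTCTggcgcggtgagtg
Rpl4, chr8:73566447-73566501, plus strand: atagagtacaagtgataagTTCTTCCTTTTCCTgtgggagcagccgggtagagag
Rps23, chr2:23814487-23814541, plus strand: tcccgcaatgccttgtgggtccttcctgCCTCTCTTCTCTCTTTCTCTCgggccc
Rps3, chr1:163195752-163195806, minus strand: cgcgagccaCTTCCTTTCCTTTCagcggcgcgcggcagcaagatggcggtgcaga
The capital run spans the annotated start in Rplp0, Rplp1, Rps15, Rpl9, Rpl10, Rpl4 and Rps23, it lies before the start in Rplp2, Rpl36 and Rps3 and after it in Rps19, and no run of this length was found in the stretch of Rpl3. A run of 7 or more C or T bases between 10 bases before and 20 bases after the start was present in 39 of the 59 member windows (66.1%), against 15.7% of the windows of the 12209 other kidney genes and 17.0% of all 33469 RefSeq windows. CTTTCC or CTTTTC in the same stretch was present in 35.6% of the member windows, 1.87% of those of other kidney genes and 2.06% of all windows. CTTCCG on either strand of the whole window of 300 bases occurred in 57.6% of members, 28.6% of other kidney genes and 16.6% of all windows. AAGATGGC on either strand occurred in 8.47%, 4.81% and 3.17% of these windows, in the same order, and TATAAA on the coding strand from 45 to 11 bases before the start in 5.08%, 1.36% and 1.74%. CTTTCC can overlap a pyrimidine run and CTTCCG, so these counts are not independent of each other. A match is a description of the letters in the window only.

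Before the diets are compared, 5 of the 16 libraries have to be set out. On the first principal component of the kidney genes other than the members, which held 46.2% of their variance, HFD rats 1252, 1255 and 1274 and SD rats 1247 and 1248 lay between −77.9 and −54.2, and the other 11 rats between 1.44 and 75.6. The widest gap between neighbouring rats (55.6) separated them and the next widest was 22.3. These 5 libraries come from both diets and the labels give no batch. Mitochondrial mRNAs (13 genes) made up 20.04% to 29.6% of their normalized counts, against 17.9% to 24.5% in the other 11. The summed red blood cell markers (4 of 4 in the table) ran between 11709 and 25498 in the 5 and between 21541 and 100940 in the 11, and the podocyte markers (5 of 5) between 995 and 4723 and between 3273 and 5642. Macrophage markers (4 of 4) ran between 284 and 706 and between 249 and 509, and lymphocyte markers (3 of 5) between 27.8 and 79.8 and between 19.7 and 63.0. The kidney markers were present in all libraries. Summed over 5 proximal tubule genes they ran between 36969 and 71098 in the 5 and between 49754 and 131930 in the 11, and over 3 genes of the thick ascending limb between 85447 and 204000 and between 79497 and 130790. Urothelial markers (3 of 4) ran between 12.1 and 5339 in the 5 and between 11.2 and 848 in the 11, and the sums for the distal tubule, collecting duct, endothelium and adipocytes overlapped between the 5 and the 11. The part of these markers and of mitochondrial mRNA in the values of the members was not tested. Because kidney tissue is a mixture, a change in the number of cells of a type and a change in RNA per cell cannot be told apart. The main results are given with all 16 rats and without these 5.

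Summed over the 78 members, ribosomal protein mRNA made up between 2.05% and 3.75% of all normalized counts of a kidney. In the HFD group the share was 2.24, 2.93, 3.75, 2.31, 2.33, 2.43, 2.62 and 2.70% (rats 1252, 1255, 1256, 1259, 1267, 1271, 1274 and 1275). In the SD group it was 2.85, 2.59, 3.04, 2.05, 2.49, 3.63, 3.54 and 3.18% (rats 1244 to 1251 in order). The groups overlapped over most of their range, and the highest kidney of all was HFD rat 1256. The mean share was 2.66% ± 0.50 in HFD kidneys and 2.92% ± 0.54 in SD kidneys (SD, n = 8 each), a difference smaller than the spread between rats of one diet. Without the 5 libraries it was 2.70% ± 0.61 in 5 HFD rats and 3.14% ± 0.40 in 6 SD rats, and within the 5 libraries the order was reversed, with the HFD mean 0.33 percentage points above the SD mean. No test was run on this sum.

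**Figure D1:**
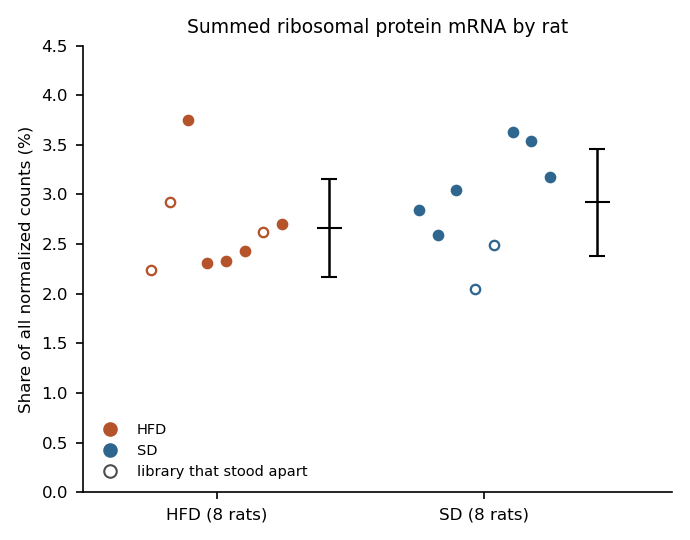
Share of all normalized counts (%, y axis from 0) summed over the 78 members, 1 point per rat, HFD on the left and SD on the right; open points are the 5 libraries that stood apart, and the black bars give mean ± SD of 8 rats. The 2 diets overlap, with HFD rat 1256 (3.75%) the highest and SD rat 1247 (2.05%) the lowest.

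The diets were then compared gene by gene. No member passed the test: 0 of 78 had an adjusted p under 0.05 with a fold change of more than 1 on the log2 scale (limma, Benjamini-Hochberg over all 13673 genes), and neither did any other kidney gene (0.0%). The study's own DESeq2 test at the same limits called Epha3, Atp12a, Robo3 and Sult4a1, none of them a member. The 0 over all genes is therefore that of limma on log2 normalized counts, and does not mean that no kidney gene differed by diet. The smallest adjusted p of a member was 0.918. At an unadjusted p under 0.05 there were 3 members, all lower in HFD kidneys, against 4.34% of all genes in either direction, 2.55% lower and 1.79% higher. The fold change was below 0 for 68 of 78 members, against 53.8% of all genes. Its median was −0.19 on the log2 scale over the members and −0.02 over all genes, and the median standard error of a member was 0.17. The split by diet took a median of 5.98% of the variance of a member between rats, from 0.001% to 31.4%. Any split of the rats takes some share, and the same share over all genes is not reported here. The 2 diets overlapped for every member (0.0146% of all genes did not overlap).

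The median fold change was −0.19 both in the 37 large subunit members, of which 31 were below 0, and in the 26 small subunit members, of which 25 were below 0. It was −0.17 in the 8 paralogs, of which 5 were below 0. All 3 stalk genes were below 0, with a lower median of −0.64. Without the 5 libraries the medians were −0.25 in the large subunit, −0.24 in the small subunit, −0.27 in the paralogs and −0.44 in the stalk. The same direction held for the members' median under every scaling of the libraries tried, from −0.125 with equal totals, which put 62 members below 0, to the value as deposited.

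Without the 5 libraries the median was −0.26 and 72 of 78 members were below 0 (53.7% of all genes). Again no member passed the test (3 genes did of all, 0.0219%), the smallest adjusted p being 0.375, and the diets overlapped for every member (0.936% of all genes did not overlap, 0.307% with every HFD rat below every SD rat). Here 15 members had an unadjusted p under 0.05, against 10.9% of all genes; 14 of them were lower in the HFD group (5.44% of all genes) and 1, Rpl9, was higher (5.43%). Within the 5 libraries alone (3 HFD, 2 SD rats) the median was 0.08, 22 of 78 members were below 0 (49.8% of all genes), none passed the test (0.00731% of all genes did) and 4 had an unadjusted p under 0.05 (4.86%): Rpl30 and Rpl9 lower (2.49% of all genes), Rpl10l and Rpl22l1 higher (2.36%). The counts at an unadjusted p therefore rested on which rats were used. They were 15 without SD rat 1247 (11.5% of all genes) and 13 without HFD rat 1256 (8.51%), but 1 without HFD rat 1252 (2.8%) and 1 without HFD rat 1259 (3.47%), so that the share over all genes moved with them, while the median stayed between −0.29 and −0.13 whichever rat was left out.

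**Figure D2:**
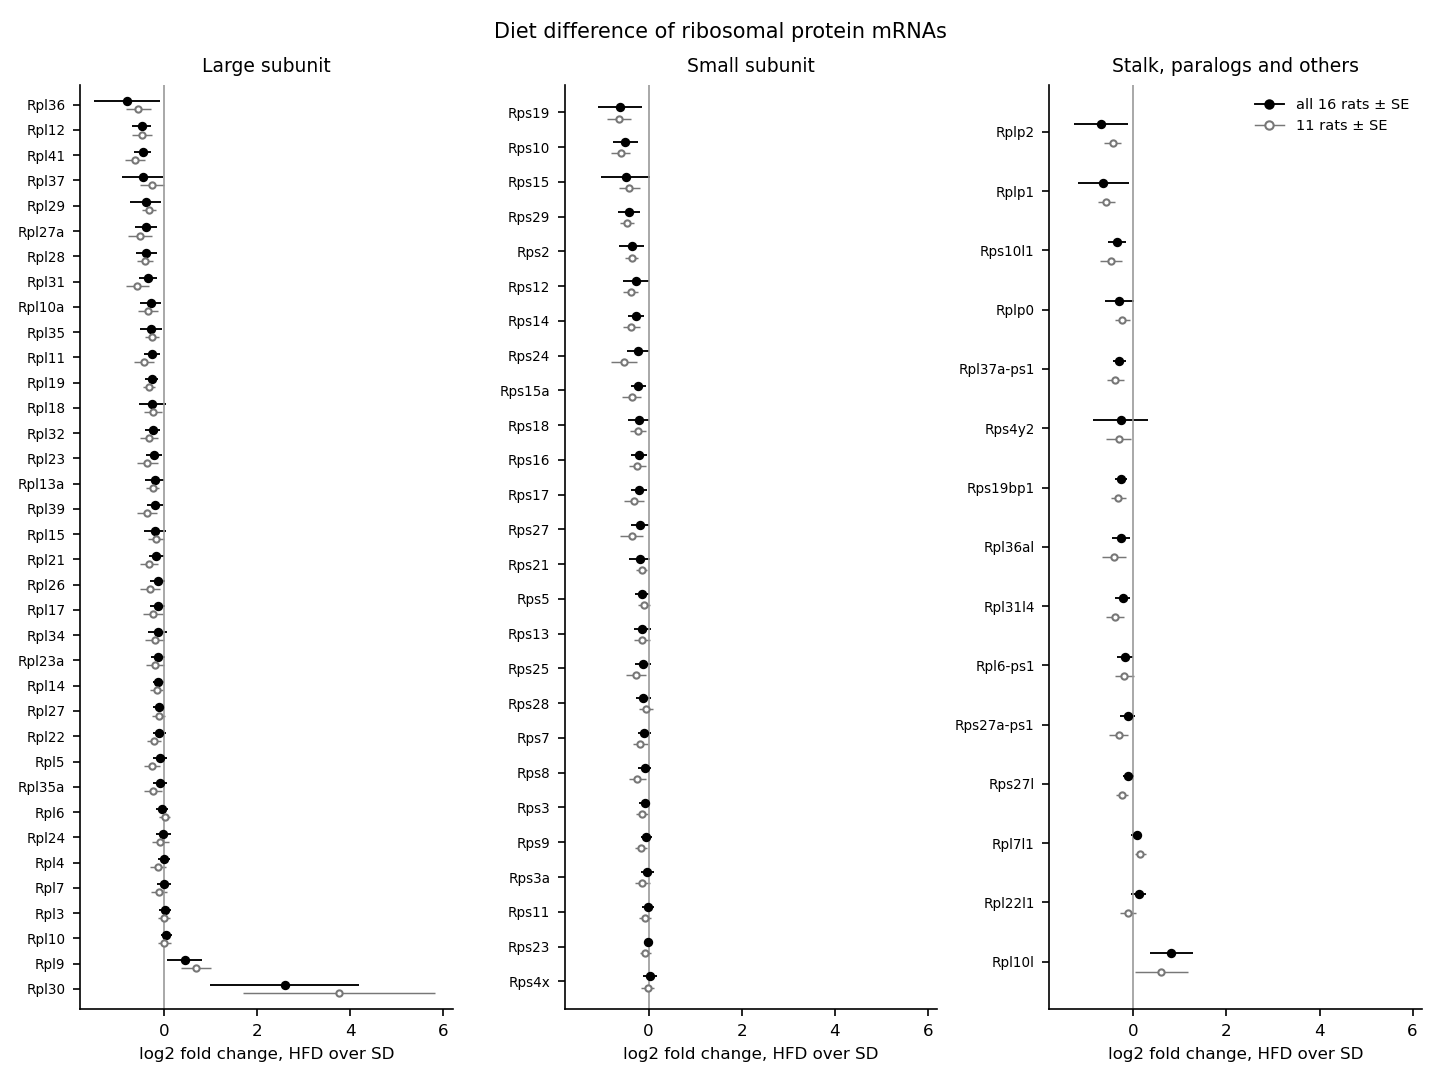
Log2 fold change of 77 of the 78 members (1 large subunit member is not reported here), HFD over SD (x axis), with its standard error; black points use all 16 rats and open points the 11 rats without the libraries that stood apart. Most points lie left of 0 and within 1 or 2 standard errors of it; Rpl30, at 2.59, is the gene listed at 0 in 2 SD libraries.

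The 3 members with an unadjusted p under 0.05 were Rpl41, Rpl12 and Rpl37a-ps1. Rpl41 codes for the shortest ribosomal protein, which sits between the subunits. Its normalized count had a lowest, median and highest value of 15345, 21235 and 34559 in HFD kidneys, against 19147, 31531 and 37919 in SD kidneys. Of the 8 HFD kidneys only rat 1256 reached the SD median. The fold change was −0.46 ± 0.18 (SE) on the log2 scale (unadjusted p = 0.0186 and adjusted p = 0.918, limma), and −0.61 ± 0.22 without the 5 libraries.

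Rpl12, a protein at the base of the stalk, had 2008, 2733 and 4574 in HFD kidneys as its lowest, median and highest counts, against 2430, 3814 and 7037 in SD kidneys. SD rat 1250 stood far above the others of its diet. The fold change was −0.48 ± 0.20 (SE; unadjusted p = 0.0296, adjusted p = 0.918, limma), and −0.46 ± 0.21 without the 5 libraries. Rpl37a-ps1, the coding Rpl37a gene of RefSeq, had 5663, 7722 and 10054 in HFD kidneys, against 6837, 9370 and 12332 in SD kidneys, with a fold change of −0.30 ± 0.14 (unadjusted p = 0.0453, limma), and −0.38 ± 0.18 without the 5 libraries. In each of these genes the HFD median was lower and the ranges overlapped.

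The stalk genes varied widely between kidneys. Rplp1 had counts of 3486, 5420, 24485, 17086, 12839, 14007, 3693 and 18195 in HFD rats 1252, 1255, 1256, 1259, 1267, 1271, 1274 and 1275, against 25731, 21047, 27685, 2969, 4407, 23971, 31462 and 22360 in SD rats 1244 to 1251. The 5 lowest kidneys were the 5 libraries that stood apart, 3 of them HFD and 2 SD, none of these exceeded 5420, and no other kidney lay under 12839. Its fold change by diet was −0.64 ± 0.55 on the log2 scale over 16 rats (adjusted p = 0.918, limma). Among the 11 other rats it was −0.58 ± 0.17 (unadjusted p = 0.00565, adjusted p = 0.375), and the 5 HFD values (12839 to 24485) overlapped the 6 SD values (21047 to 31462) through rat 1256.

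Rplp2, the partner of Rplp1 in the stalk dimers, had counts of 80.4, 137, 781, 679, 429, 603, 162 and 906 in the HFD rats in the same order, against 700, 843, 1139, 112, 184, 921, 1035 and 803 in the SD rats. The same 5 kidneys were lowest. The fold change was −0.69 ± 0.59 over 16 rats and −0.44 ± 0.19 over 11 (adjusted p = 0.918 and 0.431, limma). Rplp0, the scaffold that anchors the dimers to the ribosome and a common reference gene in quantitative PCR, had 9021, 13023, 25765, 23854, 16984, 23205, 9190 and 20977 in the HFD rats, against 33135, 22791, 25781, 8017, 12206, 21372, 32596 and 21652 in the SD rats. Its 5 lowest kidneys were again the same, although its distance from the other 11 was narrower, and its fold change was −0.30 ± 0.31 over 16 rats (adjusted p = 0.918) and −0.23 ± 0.16 over 11 (adjusted p = 0.617).

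Other members had the same 5 kidneys lowest. Rpl36, a large subunit protein, had counts of 206, 275, 3515, 1261, 1420, 1284, 269 and 2083 in the HFD rats, against 1898, 1808, 2916, 171, 418, 3166, 3632 and 2518 in the SD rats. No library that stood apart exceeded 418 and no other lay under 1261. Rps19, a small subunit protein needed to mature the subunit and the gene first linked to Diamond-Blackfan anaemia in humans, had 1245, 2000, 7184, 3976, 2670, 4529, 1468 and 4391 in the HFD rats, against 10556, 4041, 8056, 1014, 1755, 6097, 7227 and 6250 in the SD rats. Its fold change was −0.62 ± 0.47 over 16 rats and −0.64 ± 0.26 over 11 (adjusted p = 0.918 and 0.414, limma).

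All 5 of these kidneys lay below all 11 others for 15 members, among them Rplp0, Rplp1, Rplp2, Rpl36, Rpl37, Rps2, Rps4y2, Rps15, Rps19 and Rps29, against 11.2% of all genes, and above them for none (4.81% of all genes). The rats were divided on other genes of the same libraries, so this is a description and no test was run. Rps4y2, a paralog of Rps4x, was between 23.3 and 69.2 in the 5 libraries and between 139 and 373 in the others, and Rpl37 was between 122 and 253 and between 374 and 1086. Rps4x itself had 9771, 12382 and 16046 as its lowest, median and highest counts in HFD kidneys, against 8885, 11406 and 17901 in SD kidneys.

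Rpl9, a large subunit protein, ran the other way. It had 6676, 6770, 2215, 5508, 3360, 7239, 6594 and 5666 in the HFD rats, against 2472, 5483, 2033, 8700, 11780, 1929, 2872 and 2682 in the SD rats. The 2 SD libraries that stood apart held its highest counts, and of the other SD rats only 1245 exceeded 2872. Its fold change was 0.45 ± 0.38 over 16 rats (adjusted p = 0.918, limma), 0.70 ± 0.32 over 11 (unadjusted p = 0.0475, adjusted p = 0.454) and −0.60 within the 5.

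**Figure D3:**
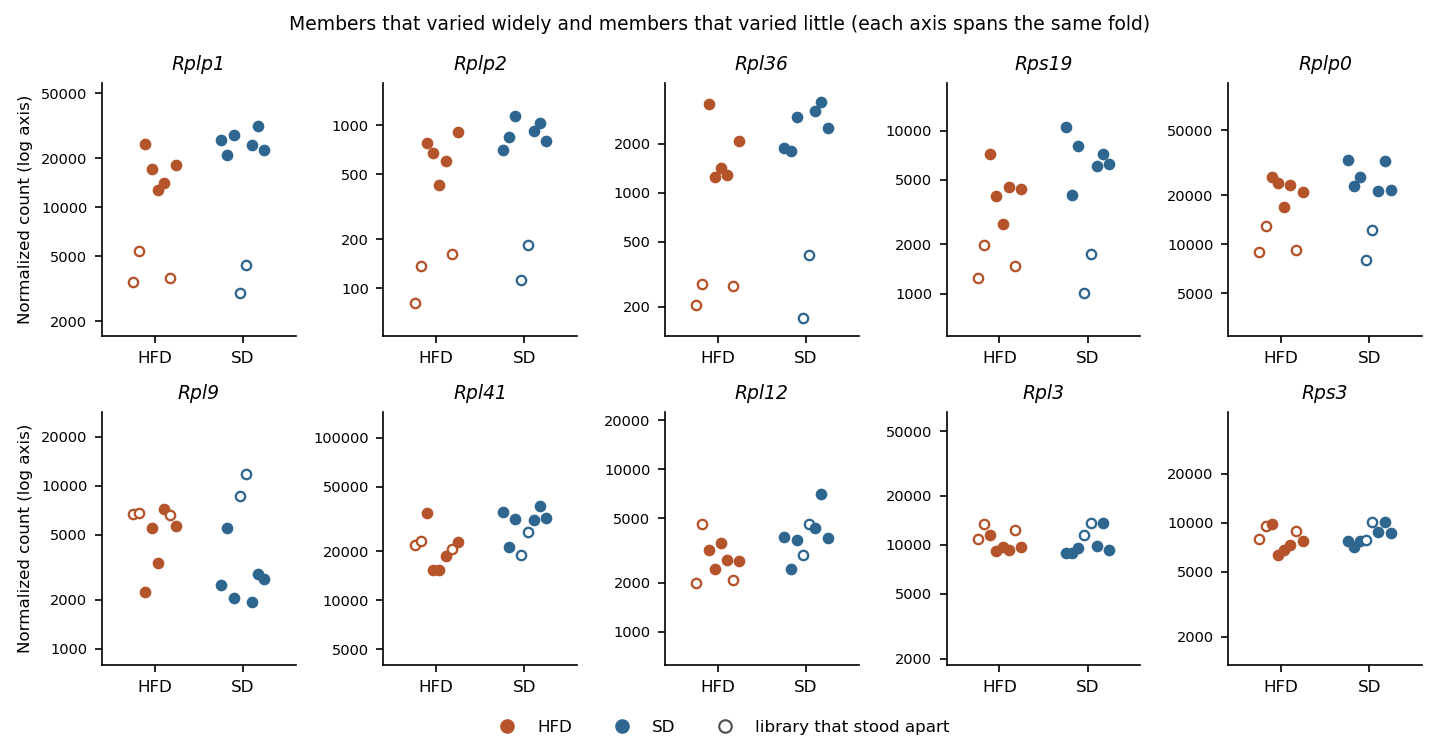
Normalized count (log y axis, each panel spanning the same fold) of 10 members in every kidney, HFD left of SD; open points are the 5 libraries that stood apart. In Rplp1, Rplp2, Rpl36, Rps19 and Rplp0 the open points of both diets lie at the bottom, in Rpl9 those of the SD rats lie at the top, and in Rpl3 and Rps3 all points lie within a narrow band.

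At the other end of the range were several core members that varied least between kidneys. Rps23, a protein of the decoding centre, ran from 5644 to 8425, a range of 0.58 on the log2 scale between the lowest and the highest of 16 rats. Rpl3, which reaches towards the site of peptide bond formation, had 9115, 10329 and 13361 as its lowest, median and highest counts in HFD kidneys, against 8879, 9703 and 13608 in SD kidneys, a range of 0.62. Rpl10, which joins the large subunit late in its maturation, had 8502, 10823 and 12526 in HFD kidneys, against 8213, 9891 and 12866 in SD kidneys, a range of 0.65. Rps3, at the entry of the mRNA channel, had 6381, 7889 and 9905 in HFD kidneys, against 7137, 8288 and 10188 in SD kidneys, a range of 0.68. Their fold changes by diet were 0.02 ± 0.12 for Rpl3, 0.05 ± 0.12 for Rpl10 and −0.08 ± 0.11 for Rps3 (SE, adjusted p from 0.919 to 0.975, limma). Over 11 rats they were −0.01 ± 0.13, 0.01 ± 0.14 and −0.14 ± 0.14 in the same order.

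Over all members the range between the lowest and the highest kidney had a median of 1.21 on the log2 scale, against 1.41 over all genes and 1.08 over genes with a mean of 1000 or more. It was under 1 for 18 members, from 1 to 2 for 46 and 2 or more for 14. Among the 11 rats the median was 1.07 and 2 members (Rpl30 and Rpl10l) had a range of 2 or more. Leaving out Rpl30, the first principal component held 69.5% of the variance of the other 77 members and the second 18.4%, and in the 11 rats alone the first held 66.9%. In either set of kidneys the larger part of the variance thus lay on a single axis.

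Seen by rat, single kidneys were high or low for most members at once. In HFD rat 1256, 71 of 78 members were above their median over the 16 rats, and in SD rats 1250, 1251 and 1249 it was 75, 66 and 59. In HFD rats 1259, 1267 and 1271, 10, 9 and 15 members were above, and in SD rat 1247, 10. SD rat 1250 was the highest kidney for 34 members and HFD rat 1256 for 16, whereas SD rat 1247 was the lowest for 33 and HFD rat 1259 for 25. The same counts over all genes are not reported here, so whether these shifts are particular to the members was not tested. The median log2 value of all kidney genes kept also differed, from 8.23 (HFD rat 1252) to 8.56 (SD rat 1244). It was 8.38 in rats 1256 and 1250, 8.25 in rat 1247 and 8.48 in rat 1259. The median member differed from its own median by between −0.33 (rat 1267) and 0.37 (rat 1256) in the HFD group, and by between −0.37 (rat 1247) and 0.50 (rat 1250) in the SD group. High and low kidneys thus occurred on both diets. The map of the members by rat also shows that the lowest values of the 5 libraries fell on some members and not on others: in HFD rat 1255, 43 members were above their median while the stalk genes had a median deviation of −1.70.

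**Figure D4:**
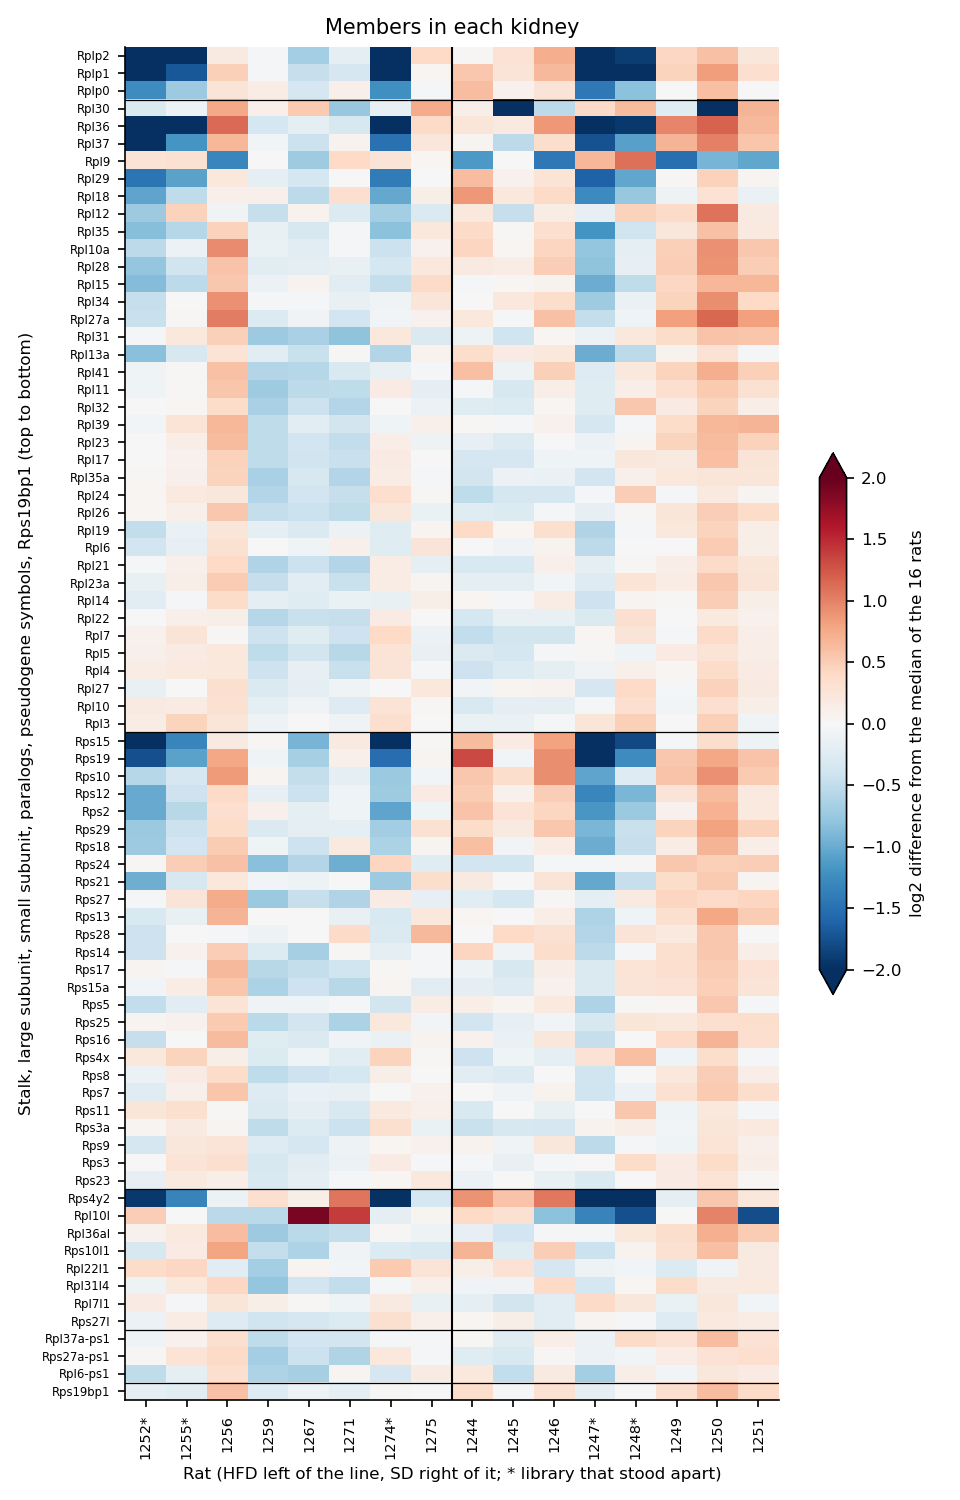
Log2 difference of 77 of the 78 members (rows, by class and then by falling range) from its median over the 16 rats (columns, HFD left of the line and SD right of it); colours are cut at −2 and 2, and an asterisk marks the libraries that stood apart. Rat 1256 on HFD and rat 1250 on SD are high for nearly all members, and in every marked column Rplp1, Rplp2, Rpl29, Rpl36, Rpl37, Rps15, Rps19 and Rps4y2 lie more than 1 below their median, while Rplp0 lies between −1.42 and −0.72.

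Rpl30, a large subunit protein, had the highest fold change of all genes tested (2.59 ± 1.59 on the log2 scale, adjusted p = 0.918, limma). Its counts were 1156, 1313, 2385, 1521, 2042, 835, 1276 and 2361 in the HFD rats, against 1525, 0, 980.5, 1835, 2181, 1193, 0 and 2258 in the SD rats. It was thus listed at 0 in SD rats 1245 and 1250, and no other member was listed at 0 in any kidney. Among 3322 genes with a mean of 1000 or more only 1 other was listed at 0 in any library. Without these 2 SD rats the fold change was −0.07 ± 0.26 (adjusted p = 0.999). The cause of the zeros was not tested, and no fold is drawn from them.

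Among the other small subunit members, Rps10, a protein marked by ubiquitin when ribosomes collide, had 1141, 1588 and 3420 in HFD kidneys, against 916, 2750 and 3616 in SD kidneys. Of the HFD kidneys only rat 1256 exceeded 1972, and the fold change was −0.50 ± 0.27 over 16 rats and −0.60 ± 0.20 over 11 (adjusted p = 0.918 and 0.386, limma). Rps14, whose loss in humans belongs to the 5q deletion syndrome, averaged 9426 ± 2364 in HFD kidneys and 11271 ± 2466 in SD kidneys (SD, n = 8 each; fold change −0.26 ± 0.17, and −0.37 ± 0.19 over 11 rats). Rps3a and Rps4x had fold changes of −0.03 ± 0.14 and 0.02 ± 0.15 over 16 rats, and −0.14 ± 0.16 and −0.02 ± 0.14 over 11. The remaining small subunit members not named so far had fold changes between −0.28 and −0.02, apart from Rps2, Rps15 and Rps29 at −0.36, −0.49 and −0.41.

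Among the other large subunit members, Rpl5 and Rpl11, which carry the 5S RNA into the ribosome and bind Mdm2 when assembly is disturbed, both lay below 0. Rpl5 averaged 14806 ± 3299 in HFD kidneys and 15492 ± 2294 in SD kidneys, with a fold change of −0.08 ± 0.14, and Rpl11 averaged 8583 ± 2588 in HFD kidneys and 10096 ± 1972 in SD kidneys, with a fold change of −0.26 ± 0.17 (SE, adjusted p = 0.930 and 0.918, limma). Over 11 rats Rpl5 had −0.25 ± 0.17 and Rpl11 −0.43 ± 0.22. Rpl4 and Rpl7 had fold changes of 0.00 ± 0.14 and 0.00 ± 0.15 over 16 rats, and −0.12 ± 0.17 and −0.11 ± 0.17 over 11. Rpl13a, which in human cells can leave the ribosome to silence inflammatory mRNAs, had −0.20 ± 0.20 over 16 rats and −0.23 ± 0.14 over 11, and Rpl39, which lines the exit tunnel, −0.20 ± 0.17 and −0.35 ± 0.21. Rpl19 had −0.26 ± 0.14 over 16 rats and −0.32 ± 0.13 over 11 (adjusted p = 0.918 and 0.420).

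The paralogs stood on both sides of 0. Rpl10l had the highest fold change of the members after Rpl30, 0.82 ± 0.47 (adjusted p = 0.918, limma), on low counts of 7.43 to 44.9 in HFD kidneys, against 2.61 to 23.4 in SD kidneys. HFD rats 1267 and 1271 held the 2 highest values, and over 11 rats the fold change was 0.60 ± 0.57. Rpl22l1, the paralog that can stand in for Rpl22, averaged 1036 ± 260 in HFD kidneys and 937 ± 140 in SD kidneys, with a fold change of 0.11 ± 0.16 over 16 rats and −0.12 ± 0.17 over 11, and Rpl22 itself had −0.10 ± 0.14 and −0.21 ± 0.15. Rpl7l1 had 0.07 ± 0.12, Rps27l −0.11 ± 0.12 and Rpl36al −0.26 ± 0.19 over 16 rats, and 0.15 ± 0.12, −0.24 ± 0.13 and −0.41 ± 0.25 over 11. Rps19bp1, the 1 member that is no ribosomal protein, averaged 976 ± 214 in HFD kidneys and 1168 ± 211 in SD kidneys (fold change −0.26 ± 0.14, and −0.32 ± 0.16 over 11 rats), with rat 1256 above all other HFD rats.

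The members were set beside lists of the translation machinery from the same fit. Of the ribosomal genes whose symbols fall outside the pattern, Rpsa, Fau and Rack1 had fold changes of −0.42, −0.39 and −0.08, and none of them passed the test. Over 11 rats they had −0.49 ± 0.19, −0.34 ± 0.19 and −0.13 ± 0.12. Rpsa, a small subunit protein, averaged 17148 ± 5004 in HFD kidneys and 24070 ± 9900 in SD kidneys. Of 13 translation factors and other genes whose mRNAs also carry a pyrimidine tract, 7 were below 0 with a median of −0.01. Pabpc1, which binds the poly(A) tail, was the 1 with an unadjusted p under 0.05, at 5999 ± 1467 in HFD kidneys and 4440 ± 1379 in SD kidneys (fold change 0.45 ± 0.20, adjusted p = 0.918, limma). Over 11 rats its fold change was 0.51 ± 0.20.

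Of 25 ribosome biogenesis genes 11 were below 0 (median 0.02). The 1 with an unadjusted p under 0.05 was Nhp2, a protein of the particles that place pseudouridines in ribosomal RNA. It ran from 19.8 to 190 in HFD kidneys, against 95.8 to 277 in SD kidneys, with the values of 4 HFD rats under the SD minimum. Its fold change was −1.15 ± 0.44 over 16 rats (unadjusted p = 0.0174, adjusted p = 0.918, limma) and −1.82 ± 0.47 over 11 (adjusted p = 0.355). Of 19 genes of the mTOR pathway 9 were below 0 (median 0.03), among them Eif4ebp1, the repressor of cap-dependent translation, at −0.45 ± 0.34, while Larp1, which binds the pyrimidine tract, had 0.35 ± 0.17 and Mtor 0.17 ± 0.12. Over 11 rats Eif4ebp1 had −0.69 ± 0.27, Larp1 0.51 ± 0.19 and Mtor 0.30 ± 0.14. Of 15 subunits of the initiation factors 3 and 4, 5 were below 0 (median 0.06). Over 11 rats the medians were 0.15 for the translation factors with a pyrimidine tract, 0.04 for biogenesis, 0.13 for the mTOR pathway and 0.03 for the initiation factors. No gene of these lists passed the test.

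The lists used for comparison also had medians below 0. Of 73 mitochondrial ribosomal proteins 67 were below 0, with a median of −0.20, of 38 genes with the symbol of a proteasome subunit 34, with a median of −0.14, and of 74 genes of oxidative phosphorylation 74, with a median of −0.29. At an unadjusted p under 0.05 there were 5, 3 and 17 of them, all lower (2.55% of all genes), and none passed the test. The 3 proteasome symbols include Psmc3ip, which codes for a factor of meiotic recombination and not for a proteasome subunit. With all 16 rats the median of the cytosolic members (−0.19) lay between those of these lists. Without the 5 libraries the 3 medians were −0.20, −0.20 and −0.30, against −0.26 in the members. Within the 5 libraries they were −0.01, 0.03 and −0.15, and the members lay above all 3 with 0.08.

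**Figure D5:**
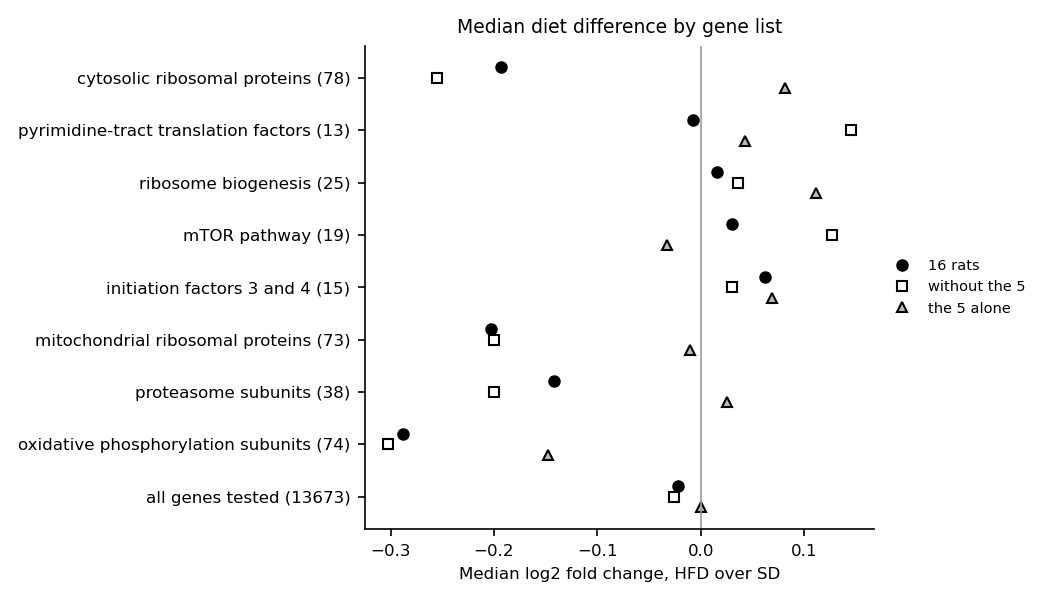
Median log2 fold change, HFD over SD (x axis), of 9 gene sets (number of genes tested in brackets); filled circles use 16 rats, open squares the 11 without the libraries that stood apart and grey triangles those 5 alone. The cytosolic ribosomal proteins (−0.19), the mitochondrial ones (−0.20) and the oxidative phosphorylation genes (−0.29) lie left of all genes (−0.02), and the biogenesis, mTOR and initiation factor lists lie near 0.

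The windows around the start sites were then set against the range of each member between kidneys. The GC content of the 300 bases ran from 40.0% to 70.7% with a median of 56.7%, against 60.3% in other kidney genes. Across the 59 members with a window, the GC content and the range between the lowest and the highest kidney had a Spearman rho of 0.37 and a Pearson r of 0.21. These are correlations across genes of the same 16 libraries, given as a description without a test. In the stretches printed above, a pyrimidine run spans the start both in members that varied widely (Rplp1, Rps15 and Rpl9) and in members that varied little (Rpl10, Rpl4 and Rps23). The marked run does not span it in Rplp2, Rpl36 and Rps19, which varied widely, or in Rps3, which varied little, and Rpl3 has none. Whether the run bears on the range was not tested.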

How the data were processed

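Normalized counts per gene and kidney were analysed as the authors deposited them (a coverage-like signal, not whole reads). According to the submitters' processing notes and methods, reads were trimmed with Cutadapt and quantified with Salmon against Rnor6.0, and DESeq2 1.24.0 was used for testing. How libraries were scaled is not given in the sources used here. Median-of-ratios factors computed from the deposited values were 0.995 to 1.02. The sums were 17623718 to 22565849 per kidney, but the values were not whole and no step of 1 read was recovered, so the depth of each library could not be recovered (the study gives only a range of reads per sample) and no counting interval is given. The deposited log2 fold changes and p-values are the authors' own comparison by diet and were not used. The small RNA tables were not used here.

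Genes with a mean of at least 5 were kept, values were taken as log2(normalized count + 1), which understates changes of low genes, and HFD and SD were compared with limma 3.58.1 (R 4.3.3, trended variance, two-sided, Benjamini-Hochberg over all genes kept). The procedure was tested on simulated data of 13673 independent genes, of which 200 were changed. At an adjusted p under 0.05 alone (limma) it recovered 67% of changes of 1 and 90% of changes of 2 on the log2 scale. It made 10 false calls. Changes as small as the median fold change of the members were not simulated. To pass, a gene needed an adjusted p under 0.05 and a log2 fold change above 1 in size. Diets were taken from the sample labels. The labels do not say whether rats were housed apart. Genes named were the 8 members with the highest and the 5 with the lowest mean, the 6 with the smallest p in each direction, the 3 with the widest range and a list by role (33 in all); other names were chosen after their values were seen. For the other lists the 3 genes with the smallest p could be named, or the ribosomal genes outside the pattern. The values of single genes are not all reported here. The members and lists were chosen with earlier results of these data known. Alternatives changed the pseudocount, filter, scaling, variance model and the rats used. Principal components were computed on centred log2 values.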

Additional observations from a re-analysis of the deposited data

Results flagged for a closer look

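In 5 of 68 groups of 8 kidneys looked at (33 named members and the summed share, in each diet), the highest rat lay further from the rest than the critical gap for 8 samples. In independent groups of normal values that happens in about 1 of 20. The groups here share the same rats and members that move together, so the 5 cannot be set against that rate. In 4 of the 5 the rat was 1256 of the HFD group. Its share of ribosomal protein mRNA was 3.75%, against 2.24% to 2.93% in the other HFD rats. Its Rpl41 count was 34559 (others 15345 to 23232), its Rps10 count 3420 (others 1141 to 1972) and its Rps19bp1 count 1482 (others 829 to 1007). In the SD group Rpl12 was 7037 in rat 1250, against 2430 to 4571 in the others. Without HFD rat 1256 the median fold change of the members was −0.29 in place of −0.19 on the log2 scale, and 13 members in place of 3 had an unadjusted p under 0.05 (8.51% in place of 4.34% of all genes).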

How the results depend on the processing

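No member passed the test under any alternative. Over the alternatives the median fold change of the members stayed below 0, from −0.31 (array weights) to −0.125 (equal totals), apart from the 5 libraries that stood apart taken alone (0.081), a setting chosen, like the fit without these 5, after seeing the data. The number of members with an unadjusted p under 0.05 was 3. It was 1 with equal totals (5.55% of all genes), 26 with array weights (16.7%), 15 without the 5 libraries (10.9%) and 1 to 15 when 1 rat was left out (2.79% to 11.5%), against 4.34% of all genes with 16 rats. Of all kidney genes 0 passed the test, against 6 with array weights, 3 without the 5 libraries, 1 within them and 0 to 1 leaving out 1 rat. The difference in summed share was −0.26 percentage points, −0.41 to −0.16 leaving out 1 rat and 0.33 within the 5 libraries.

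Fold changes changed sign in several settings. With equal totals Rps3a was 0.041. With array weights Rpl7, Rpl4 and Rps4x were −0.047, −0.065 and −0.0028. Without the 5 libraries Rpl7, Rpl4, Rpl22l1, Rps4x and Rpl3 were −0.11, −0.12, −0.12, −0.019 and −0.0056, and the translation factors with a pyrimidine tract had a median of 0.15. Within the 5 libraries the signs turned for Rplp0 (0.053), Rps3a (0.087), Rplp1 (0.19), Rpl5 (0.20), Rpl13a (0.17), Rpl7l1 (−0.21), Rps4y2 (0.81), Rpl30 (−0.68), Rpl9 (−0.60), Rps10 (0.11), Rpl19 (0.031), Rps14 (0.11), Rps19 (0.21), Rps4x (−0.075), Rpl11 (0.083), Rpl3 (−0.039), Rpl22 (0.061), Rpl39 (0.22), Rpl36al (0.023) and Rps27l (0.11). There the medians were 0.032 for the ribosomal genes outside the pattern, 0.043 for the translation factors, −0.033 for the mTOR pathway and 0.025 for the proteasome. Without SD rats 1245 and 1250, also chosen after seeing the data, Rpl30 was −0.066. Leaving out 1 rat gave −0.061 to 0.065 for Rpl7, −0.087 to 0.033 for Rps3a, −0.052 to 0.061 for Rpl4, −0.044 to 0.10 for Rps4x and −0.022 to 0.077 for Rpl3. The causes of these changes were not tested, and none of these values passed the test. The other 399 fold changes of named members under alternatives kept their sign, as did 500 leaving out 1 rat.

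No paired analysis was possible because each rat received 1 diet and the rat numbers link no HFD rat to an SD rat. The table does not give the depth of each library, and values of members with near-identical copies in the genome depend on how reads were shared between copies.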
